A study of Mus musculus with 6 samples.

Results

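The genes described here encode the metalloproteases that cut extracellular matrix and cell surface proteins, together with their inhibitors, in stromal cells of the mouse omentum. Members were chosen by symbol alone. They were every gene named as a matrix metalloproteinase (Mmp), a member of the a disintegrin and metalloproteinase family (Adam), a member of that family with thrombospondin motifs (Adamts), an Adamts-like gene (Adamtsl) or a tissue inhibitor of metalloproteinases (Timp), followed by a number. This gave 84 of the 23352 genes measured, made up of 23 Mmp, 33 Adam, 19 Adamts, 5 Adamtsl and 4 Timp genes.

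The omentum is a sheet of visceral fat that carries milky spots, which are small lymphoid clusters. Cells released from the omentum of wild-type C57BL/6 mice by enzymatic digestion were sorted into 6 stromal populations, P1 to P6, and RNA-seq was performed on 1 library of each. The study set out to characterize cells with a high capacity to make retinoic acid, which was read from the activity of aldehyde dehydrogenase (ALDH) on a fluorescent substrate. Neither the age of the mice nor the number behind each library was given in the sources used here. The CD45-, CD140a+ and CD105+ cells were split by ALDH activity into P1 (high), P2 (intermediate) and P3 (low). The CD45-, CD140a+ and CD105- cells made up P4, where ALDH activity was intermediate, and P5, where it was low. P6 was CD45-, low for CD140a and positive for ALDH activity. With 1 library in each population there was no replicate spread, so no difference below was tested, and none has a p-value.

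Levels are FPKM, fragments scaled to the length of the exons in kilobases and to the mapped reads of the library. FPKM is scaled by length, so levels of different genes can be set side by side. Depth, estimated from the steps between low FPKM values, was 53.4, 61.7, 60.7, 58.6, 61.8 and 37.0 M reads from P1 to P6. The ratios of FPKM below carry 95% intervals from these estimated reads (exact binomial), and the intervals cover counting error only. In sorted bulk populations, fewer cells expressing a gene and less RNA per cell cannot be told apart.

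The genes that encode the sorting markers followed the gates. Eng, which encodes CD105, was at 52.4, 52.2 and 42.6 FPKM in P1, P2 and P3, and at 0.359, 0.231 and 0.728 in P4, P5 and P6. Pdgfra, which encodes CD140a, was at 152, 154, 153, 119 and 117 FPKM in P1 to P5 and at 5.36 in P6. Ptprc, which encodes CD45, was at or below 0.755 FPKM in every library. Of the other fibroblast genes, Dcn was at 4350 FPKM or more in every library, Col1a1 at 670 or more and Col1a2 at 871 or more, whereas Lum was at 345, 287, 229, 143, 56.4 and 6.19 FPKM in P1 to P6.

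Metalloproteases of these families are made as inactive precursors, and a zinc ion in their active site does the cutting. Timp proteins bind active Mmp enzymes in a tight complex, and Timp3 also inhibits several Adam and Adamts enzymes. In connective tissue, fibroblasts are a main source of Mmp2, Mmp14 and the Timp proteins, and the Adamts proteins process procollagens and cut large proteoglycans such as versican and aggrecan.

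Of the 84 members, 45 had a mean of at least 1 FPKM over the 6 libraries, and these entered the comparisons. Mmp9 and Adam1a did so only through their values in P3, and Adam5 only through its value in P1. The 45 were 11 Mmp, 12 Adam, 14 Adamts, 5 Adamtsl and 3 Timp genes. A mean of at least 10 FPKM was reached by 24 members, and a mean of at least 100 by 6, namely Timp2, Adamts1, Mmp14, Adamts2, Mmp23 and Mmp2. At the other end, 18 members were listed at 0 in every library, 13 of them Adam genes and 5 of them Mmp genes. A further 17 members were detected but stayed below 1 FPKM in each library.

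**Figure D1:**
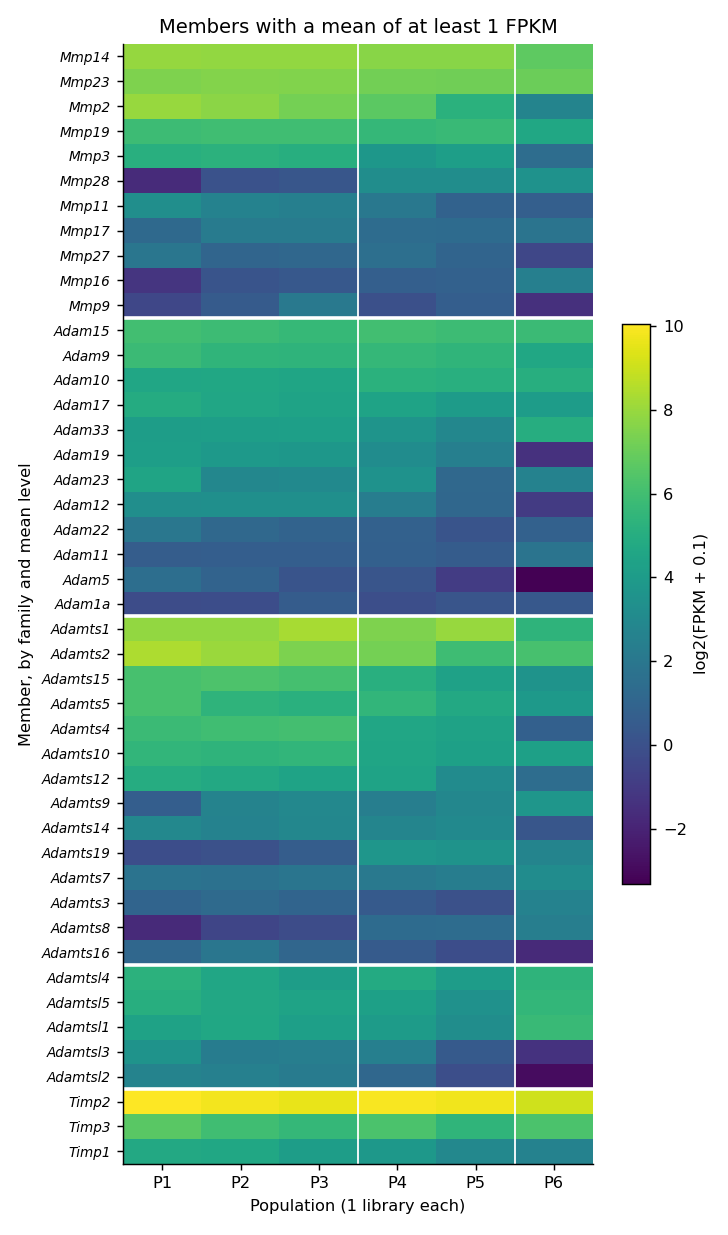
Heat map of the 45 members that averaged 1 FPKM or more. Columns are the 6 libraries, genes are grouped by family and ordered by mean, and color is log2(FPKM + 0.1). Timp2 is the brightest gene, and Mmp2, Adam19, Adamts4, Adamtsl2 and Adamtsl3 darken in P6.

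The inhibitors were dominated by Timp2, which blocks Mmp enzymes and also joins Mmp14 in a surface complex that activates the precursor of Mmp2. Timp2 was at 1063, 908, 771, 965, 876 and 548 FPKM in P1 to P6, the highest mean of any member. It made up 86.7% of the summed Timp FPKM in P6 and 94.6% in P5, with the other libraries between these shares. Timp2 was thus highest in P1 and lowest in P6, a ratio of 1.94 (95% counting interval 1.92 to 1.96), and in both CD105 gates it was lower where ALDH activity was lower.

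Timp3, the inhibitor that stays bound to the matrix, was at 97.7, 62.1, 47.6, 75.9, 42.6 and 77.8 FPKM in P1 to P6. The ALDH low populations P3 and P5 had the lowest values of Timp3, and P6 lay above P2. Exons of Timp3 overlap those of Syn3 on the opposite strand over 21.3% of their length. Syn3 was at 0.118 FPKM in P1 and at 2.68 in P6, its highest value. Timp1, a secreted inhibitor that acts poorly on the membrane-bound Mmp enzymes, was at 26.7, 24.6, 17.2, 13.8, 7.43 and 5.96 FPKM. Its level declined along the whole series from P1 to P6, although the step from P1 to P2 was not detectable at this depth (ratio 1.09, 0.993 to 1.19). Timp4 was near the limit of detection, with 0.245 FPKM in P6 as its highest value and 0 listed in P4 and P5. None of the Timp genes was called in the comparisons below, although Timp1 in P3 exceeded P5 by a ratio of 2.31 (2 to 2.65).

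Mmp14 encodes a membrane-anchored collagenase that also activates Mmp2. It was the most abundant Mmp gene by mean, at 244, 239, 238, 206, 204 and 105 FPKM in P1 to P6. P1 to P5 lay close together, and the steps from P2 to P3 (ratio 1.003, 0.989 to 1.02) and from P4 to P5 (1.01, 0.995 to 1.03) were not detectable at this depth. P6 was lower than P5 by a ratio of 1.94 (1.90 to 1.99).

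Mmp2, the gelatinase that Mmp14 and Timp2 act on, varied far more than either of them. It was at 253, 212, 152, 103, 37.5 and 6.52 FPKM in P1 to P6. The level was lower at each step from P1 to P6, with P1 and P6 apart by a ratio of 38.8 (36.0 to 41.9). The ratio of Timp2 to Mmp2 FPKM was 4.20 in P1, 9.41 in P4, 23.3 in P5 and 84.1 in P6, whereas the ratio of Timp2 to Mmp14 stayed between 3.24 and 5.22. Both are ratios of RNA and say nothing of the proteins.

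**Figure D2:**
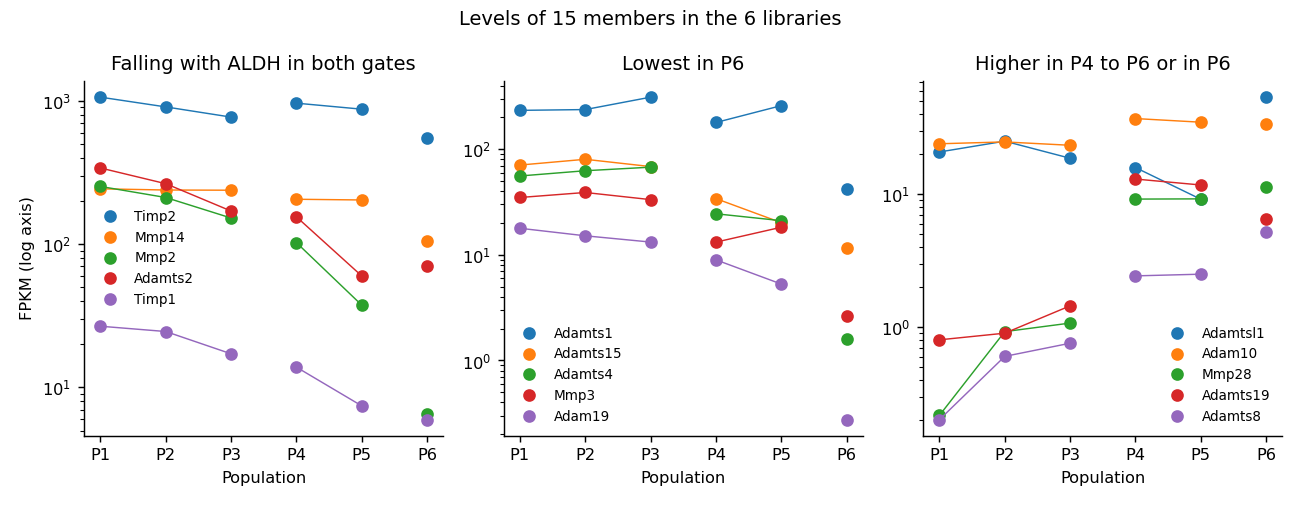
Levels of 15 members in the 6 libraries, as FPKM on a log axis. Each point is 1 library, and lines join populations within the CD105+ gate (P1 to P3) and the CD105- gate (P4 and P5). Mmp2 drops from 253 FPKM in P1 to 6.52 in P6 while Timp2 stays between 548 and 1063.

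Mmp23, which lacks the hemopexin domain of most family members, was the least variable of the abundant Mmp genes, at 179, 190, 182, 149, 143 and 132 FPKM in P1 to P6. Mmp19, a secreted enzyme, was at 57.2, 61.2, 62.7, 47.9, 53.9 and 25.3 FPKM. P6 was lowest for both. Exons of Mmp19 overlap those of Tmem198b on the opposite strand over 22.3% of their length, Tmem198b was itself at 32.8 to 46.9 FPKM, and the library kit does not mark strand, so reads of this stretch cannot be assigned to either gene.

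Mmp3 encodes stromelysin-1, which cuts proteoglycans and activates other Mmp precursors. It was at 34.9, 38.9, 33.3, 13.2, 18.2 and 2.62 FPKM in P1 to P6. The CD105+ populations were thus above the CD105- populations, and P6 was below all 5. Mmp3 lies in a cluster of 10 Mmp genes on chromosome 9 (chr9:7272514-7699585, GRCm38), which includes the collagenase Mmp13, the macrophage elastase Mmp12 and stromelysin-2, Mmp10.

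Within this cluster Mmp3 stood nearly alone. Mmp27 had a mean of 2.20 FPKM, Mmp10 reached 1.08 FPKM in P2, Mmp8 and Mmp13 did not exceed 0.0934 and 0.0266 FPKM, respectively, and Mmp12, Mmp1a, Mmp1b, Mmp20 and Mmp7 were listed at 0 in every library. The promoter windows of Mmp3, Mmp10 and Mmp13 are shown because these genes lie in the same cluster and have unlike levels. RefSeq windows of 300 bases, from 250 before to 50 after the annotated start, were searched for the AP-1 motif TGANTCA on both strands, where it reads the same, and for the TATA box TATAAA on both strands. Capitals mark the matches in the windows of Mmp3 (chr9:7445572-7445871), Mmp10 (chr9:7502092-7502391) and Mmp13 (chr9:7272264-7272563), all on the plus strand of GRCm38.p6.

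Mmp3: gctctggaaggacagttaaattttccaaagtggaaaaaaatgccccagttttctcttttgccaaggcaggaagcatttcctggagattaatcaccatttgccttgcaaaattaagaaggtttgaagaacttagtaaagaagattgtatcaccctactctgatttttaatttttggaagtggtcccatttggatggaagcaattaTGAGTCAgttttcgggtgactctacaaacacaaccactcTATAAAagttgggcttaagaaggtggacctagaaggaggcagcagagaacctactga
Mmp10: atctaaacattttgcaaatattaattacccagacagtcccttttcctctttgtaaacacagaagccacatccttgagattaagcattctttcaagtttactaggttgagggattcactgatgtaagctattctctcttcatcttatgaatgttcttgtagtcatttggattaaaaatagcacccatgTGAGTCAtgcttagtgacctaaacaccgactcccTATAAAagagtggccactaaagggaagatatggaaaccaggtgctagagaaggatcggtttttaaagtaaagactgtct
Mmp13: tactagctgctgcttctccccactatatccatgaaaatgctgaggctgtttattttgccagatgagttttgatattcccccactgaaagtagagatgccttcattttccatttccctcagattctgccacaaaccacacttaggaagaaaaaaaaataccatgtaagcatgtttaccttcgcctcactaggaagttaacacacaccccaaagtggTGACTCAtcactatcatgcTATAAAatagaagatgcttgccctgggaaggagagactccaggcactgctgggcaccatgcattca

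Each of these windows held 1 AP-1 motif and 1 TATA box. Of the 53 members with a window, 13 held the AP-1 motif (24.5%), against 8.97% of the 27025 genes with a window, and 15 held the TATA box (28.3%, against 15.7%). The cluster held 8 of the 13 and 9 of the 15, and of the 43 windows of other members 5 held the AP-1 motif (11.6%) and 6 the TATA box (14.0%). Of the 26 windows of members that averaged 1 FPKM or more, 2 held the AP-1 motif, those of Mmp3 and Adam19. This is near the 8.97% of all genes. A match is a run of letters and does not show that a factor binds there. Genes of the immediate-early response, which include those for AP-1 proteins, are known to be induced by tissue dissociation. The 7 listed summed to 6948, 7499, 7587, 6608, 6595 and 7947 FPKM in P1 to P6, with Fos, the highest by mean, at 1761 to 2317 FPKM. Their part in the levels of Mmp3 and Mmp10 was not tested.

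Mmp28, or epilysin, is known from epithelia such as the skin, and it had the opposite pattern to Mmp3. It was at 0.217, 0.927, 1.07, 9.21, 9.25 and 11.3 FPKM in P1 to P6. P1 to P3 lay near 1 FPKM or below, and P4 to P6 lay near 10. Its exons overlap those of 1700020L24Rik on the opposite strand over 12.0% of their length, and that gene was at 0.487, 0.999, 1.81, 11.9, 10.9 and 15.3 FPKM, the same order of gates, so part of the Mmp28 signal cannot be told apart from it.

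Mmp16, a membrane-anchored relative of Mmp14, was at 0.321, 1.02, 1.17, 1.57, 1.71 and 5.29 FPKM and was highest in P6. Mmp11, or stromelysin-3, ran the other way, at 9.53, 6.04, 5.29, 3.93, 1.76 and 1.56 FPKM. Mmp27 was at 3.72, 1.99, 2.12, 2.87, 1.86 and 0.613 FPKM. Mmp9, the gelatinase of neutrophils and macrophages, was low throughout, at 0.624, 1.32, 4.11, 0.876, 1.51 and 0.267 FPKM, with its highest value in P3.

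Among the Adam genes, most of the RNA came from broadly expressed members. Adam15 was at 62.9, 58.1, 50.1, 64.4, 56.8 and 55.7 FPKM in P1 to P6. Its ratio of highest to lowest value, 1.29, was the smallest of the 45 members. Exons of Adam15 overlap those of 4731419I09Rik on the opposite strand over 20.6% of their length. Adam9 was at 54.5, 43.0, 41.6, 47.5, 42.7 and 24.5 FPKM. Both encode active membrane proteases, and Adam9 was lowest in P6.

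Adam10 and Adam17 are the main sheddases, which release the outer parts of Notch receptors, cytokine precursors and growth factors. Adam10 was at 24.0, 24.8, 23.4, 37.2, 34.9 and 33.8 FPKM in P1 to P6, and Adam17 at 29.5, 23.8, 21.6, 21.5, 16.3 and 16.6 FPKM. For Adam10 the CD105+ populations were below the others, with a ratio of P4 to P2 of 1.5 (1.45 to 1.55) and of P5 to P3 of 1.49 (1.44 to 1.54). Adam17 was highest in P1 and lower where ALDH activity was lower in both gates.

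Adam19 and Adam12, active proteases of mesenchymal cells, were nearly lost in P6. Adam19 was at 17.8, 15.1, 13.2, 8.96, 5.29 and 0.275 FPKM, and Adam12 at 9.79, 9.88, 9.90, 4.99, 2.15 and 0.398 FPKM. Adam33, by contrast, was at 17.3, 18.2, 18.6, 11.8, 7.30 and 31.9 FPKM, with its highest value in P6 and its lowest in P5. P6 thus differed from each of P1 to P5 in opposite directions for Adam19 and Adam33.

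Adam23, Adam22 and Adam11 lack a working protease site and act as adhesion and ligand-binding proteins. Adam23 was at 22.8, 7.17, 8.09, 11.3, 2.19 and 6.05 FPKM in P1 to P6. It was highest in P1, the ALDH high population, and in each gate the population with the highest ALDH activity exceeded the next by at least 3 times. Adam11 was at 1.42, 1.49, 1.49, 1.61, 1.40 and 3.45 FPKM, and only P6 stood out. Adam5, a gene known from the testis, was at 2.80, 1.82, 1.03, 1.05, 0.416 and 0 FPKM, and it was lower at each fall in ALDH activity.

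The Adamts genes that encode procollagen N-proteinases did not move together. Adamts2, the main one of them in skin, was at 340, 264, 170, 155, 60.0 and 70.4 FPKM in P1 to P6. Adamts14 was at 7.44, 6.02, 7.19, 6.66, 7.91 and 1.08 FPKM, and Adamts3 at 1.90, 2.41, 1.87, 1.26, 0.912 and 6.02 FPKM. Adamts2 was thus highest in P1 and lowest in P5, Adamts14 was low only in P6, and Adamts3 was highest in P6.

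The proteoglycan-cutting members Adamts1, Adamts4, Adamts5, Adamts15, Adamts9 and Adamts8 act on versican and aggrecan. Adamts1 was at 233, 237, 311, 179, 258 and 42.0 FPKM in P1 to P6, and was higher in the ALDH low than in the ALDH intermediate population of each gate. Adamts5, its neighbor 55.0 kb away on chromosome 16, was at 71.3, 41.3, 36.5, 44.5, 26.9 and 15.1 FPKM, with the reverse order in each gate. The pair of neighbors therefore differed in direction with ALDH activity but shared the lowest value, in P6.

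Adamts4, or aggrecanase-1, was at 55.8, 62.5, 67.6, 24.5, 21.1 and 1.60 FPKM in P1 to P6. Adamts15 was at 70.7, 80.2, 68.4, 34.0, 20.1 and 11.5 FPKM. Both fell into a high group of the CD105+ populations, a middle group of P4 and P5, and a low value in P6. Adamts8, which lies 20.1 kb from Adamts15 on chromosome 9 (chr9:30942562-30963838 and chr9:30899155-30922452, GRCm38), was at 0.202, 0.604, 0.758, 2.44, 2.51 and 5.24 FPKM, so these neighbors had opposite orders of the gates. Exons of Adamts8 overlap those of Gm29724 on the opposite strand over 10.6% of their length.

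Adamts9 was at 1.48, 6.19, 7.54, 5.15, 7.31 and 13.1 FPKM and was lowest in P1. Adamts10, which binds fibrillin, was at 44.6, 40.9, 44.9, 23.4, 19.3 and 19.6 FPKM. Adamts12 was at 31.2, 26.7, 21.7, 21.2, 8.55 and 2.70 FPKM. Substrates of the next members are less well known. Adamts16 was at 2.14, 3.78, 2.03, 1.34, 0.789 and 0.198 FPKM, and Adamts19 was at 0.804, 0.902, 1.45, 13.0, 11.8 and 6.52 FPKM, with P4 and P5 far above P1 to P3.

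Adamtsl proteins have the ancillary domains of Adamts enzymes without a protease domain, and several of them bind fibrillin microfibrils. Adamtsl4 was at 38.0, 24.4, 17.2, 29.0, 16.6 and 41.3 FPKM in P1 to P6, Adamtsl5 at 33.0, 25.7, 21.5, 19.6, 10.9 and 45.4 FPKM, and Adamtsl1 at 20.8, 25.1, 18.7, 15.9, 9.19 and 53.9 FPKM. All 3 were highest in P6 and lowest in P5. Adamtsl3 was at 11.5, 4.75, 5.23, 5.40, 1.28 and 0.282 FPKM, and Adamtsl2 at 6.26, 5.6, 4.66, 2.15, 0.840 and 0.0355 FPKM, the last of these from about 4 reads. Adamtsl2 and Adamtsl3 were lowest in P6, so the family split there.

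Summed over each family, Mmp FPKM was 787, 758, 689, 540, 476 and 295 in P1 to P6, and Adamts FPKM was 865, 777, 746, 517, 452 and 209. Adam FPKM was 248, 207, 194, 214, 173 and 177, and Adamtsl FPKM was 110, 85.5, 67.3, 72.0, 38.8 and 141. Timp FPKM was 1187, 995, 836, 1055, 926 and 632. P1 had the highest sum for each family but Adamtsl, which was highest in P6, and this held as deposited, with median-of-ratios scaling and after division by Gapdh. The ratio of Timp to summed Mmp, Adam and Adamts FPKM was 0.625, 0.571 and 0.513 in P1 to P3 and 0.830, 0.842 and 0.929 in P4 to P6.

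**Figure D3:**
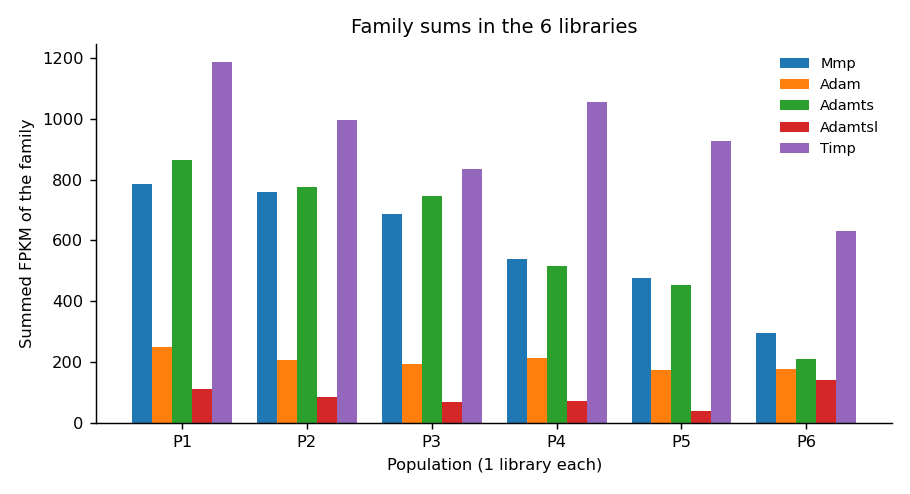
Summed FPKM of the 5 families in each of the 6 libraries, 1 bar for each family and library. Mmp and Adamts bars shorten from P1 to P6, from 787 to 295 and from 865 to 209, while Adamtsl is tallest in P6 at 141.

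In the comparisons, a gene was called when FPKM + 0.1 differed by at least 2 times, and the same rule over all 12053 genes with a mean of at least 1 FPKM gave the background. The comparisons shared libraries. P6 was set against each of P1 to P5, P2 and P3 were each used on both the CD105 and the ALDH side, and so were P4 and P5, so their counts do not stand apart from each other.

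The comparison of P6 with P1 to P5 asked how the CD140a low population differed from the CD140a+ stroma. Of the 45 members, 13 were called lower in P6 than in each of the other 5 populations, which is 28.9% against 4.34% of all genes, and 5 were called higher, which is 11.1% against 4.47%. The lower members were Mmp2, Mmp3, Mmp27, Adam5, Adam12, Adam19, Adamts1, Adamts4, Adamts12, Adamts14, Adamts16, Adamtsl2 and Adamtsl3. The higher members were Mmp16, Adam11, Adamts3, Adamts8 and Adamtsl1. With a pseudocount of 1, Mmp27, Adam5, Adamts16, Adamtsl2 and Adamtsl3 were no longer called lower, and Adam11 and Adamts8 no longer called higher. Of the proteoglycan-cutting members named above, Adamts1 and Adamts4 were called lower, Adamts8 was called higher, and Adamts5, Adamts9 and Adamts15 were not called.

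Measured against P5, the nearest of the other populations for each of these genes, Adam19 was lower in P6 by a ratio of 19.2 (14.9 to 25.1), Adamts4 by 13.2 (11.6 to 15) and Mmp2 by 5.76 (5.32 to 6.24). For Adamts1 the nearest population was P4, with a ratio of 4.26 (4.15 to 4.37). Among the higher members, Mmp16 exceeded P5 by a ratio of 3.09 (2.78 to 3.45), Adamtsl1 exceeded P2 by 2.14 (2.09 to 2.20), and Adamts8 exceeded P5 by 2.09 (1.86 to 2.35). On FPKM + 0.1, no higher member reached 3 times against all 5 populations, against 2.17% of all genes, which is near the background. Of the 13 lower members 11 did, against 2.75% of all genes.

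The median log2 difference of the 45 members was -1.15 for P6 against P1, -0.81 against P2, -0.76 against P3, -0.92 against P4 and -0.17 against P5. The medians of all genes in these pairs were 0.18, 0.12, 0.08, 0.03 and -0.01. The members' median was lower than that of all genes in each pair, by the least against P5. Gapdh was at 214, 218, 224, 302, 326 and 270 FPKM in P1 to P6. Division by Gapdh moved the medians of all genes to -0.15, -0.18, -0.19, 0.18 and 0.25, and those of the members to -1.49, -1.12, -1.03, -0.76 and 0.09. The calls were then 14 lower and 3 higher, against 3.99% and 4.76% of all genes. Median-of-ratios scaling brought the median of all genes for P6 against P1 to 0.02. Adam11, Adamts3 and Adamtsl1 were no longer called after division by Gapdh, and Adamtsl1 also missed the fold with median-of-ratios scaling (log2 difference from P2 of 0.99).

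Marker genes moved with P6 as well. Of the 5 fibroblast genes, Pdgfra and Lum were called lower in P6 than in each other population and none was called higher. Of 9 mesothelial genes, 8 were called higher in P6 than in each other population, 3 of which (Krt7, Krt8 and Krt18) were tested only through P6. The summed FPKM of the 9 was 72.8, 95.5, 147, 920, 743 and 2982 in P1 to P6. Wt1, which was not called, was the most abundant of them in P1 to P3, and Upk3b in P4 to P6. The adipocyte genes Cfd, Adipoq and Plin1 were called higher in P6, of which Cfd and Adipoq were tested only through P6, and the sum of the 4 listed genes was 3.55, 4.89, 3.51, 1.02, 0.688 and 143, with Plin1 the most abundant in P1 to P5, Cfd in P6, and Lep listed at 0 in 5 libraries, P6 included. The 6 pancreatic acinar genes, none of them called in P6, summed to 3.61, 187, 19.7, 1013, 124 and 1507 FPKM, with Cela1 the most abundant in P1 and Amy2a5 in P2 to P6. The part of these cell types in the differences of P6 was not tested.

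The sums of the endothelial, macrophage and mural genes were highest in P6, but not each gene was. The 6 endothelial genes summed to 1.04, 1.84, 2.17, 3.68, 2.21 and 49.1 FPKM, of which Kdr alone gave 46.9 in P6, and Pecam1, Cdh5 and Cldn5 were also highest there, at 0.992, 0.343 and 0.111 FPKM, with Cldn5 listed at 0 in P4. Vwf and Emcn were highest in P3. The 5 macrophage genes summed to 16.5, 26.1, 27.2, 14.8, 11.6 and 45.3 FPKM, with Lyz2 the most abundant. Csf1r and Cd68 were called higher in P6, while Adgre1 and Itgam were at or below 0.308 and 0.459 FPKM and were not highest there. The 5 mural genes summed to 3.41, 7, 11.5, 8.77, 11.9 and 38.4 FPKM, and the 2 tested went opposite ways. Acta2, the most abundant by mean, was called higher in P6, and Notch3, at 2.08, 4.11, 5.84, 1.23, 1.02 and 0.258 FPKM, was called lower. The part of these cells in the results was not tested.

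The comparison of CD105+ with CD105- stroma set P2 against P4 and P3 against P5, pairs with the same label of ALDH activity. Called higher in both pairs were 5 of 45 members, 11.1% against 3.38% of all genes, namely Mmp2, Adamts4, Adamts15, Adamts16 and Adamtsl2. Called lower in both pairs were 3 members, Mmp28, Adamts8 and Adamts19, which is 6.67% against 5.49% and near the background. Proteoglycan-cutting members were thus called on both sides, and Adamts1, Adamts5 and Adamts9 were not called.

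The largest differences, those of Adamts19 and Mmp28, were on the CD105- side. Adamts19 was lower in P2 than in P4 by a ratio of 14.4 (12.8 to 16.4) and in P3 than in P5 by 8.12 (7.34 to 8.98). Mmp28 was lower by ratios of 9.93 (8.27 to 12.0) and 8.60 (7.24 to 10.3) in these pairs. On the CD105+ side, Adamts4 was higher by 2.56 (2.48 to 2.63) and 3.21 (3.11 to 3.31), and Mmp2 by 2.07 (2.03 to 2.1) and 4.06 (3.95 to 4.17). None of the 5 higher members passed 3 times in both pairs, against 1.1% of all genes, which is near the background. All 3 lower members did, against 2.88% of all genes. With a pseudocount of 1, however, Adamts16 was no longer called higher and Adamts8 no longer called lower.

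**Figure D4:**
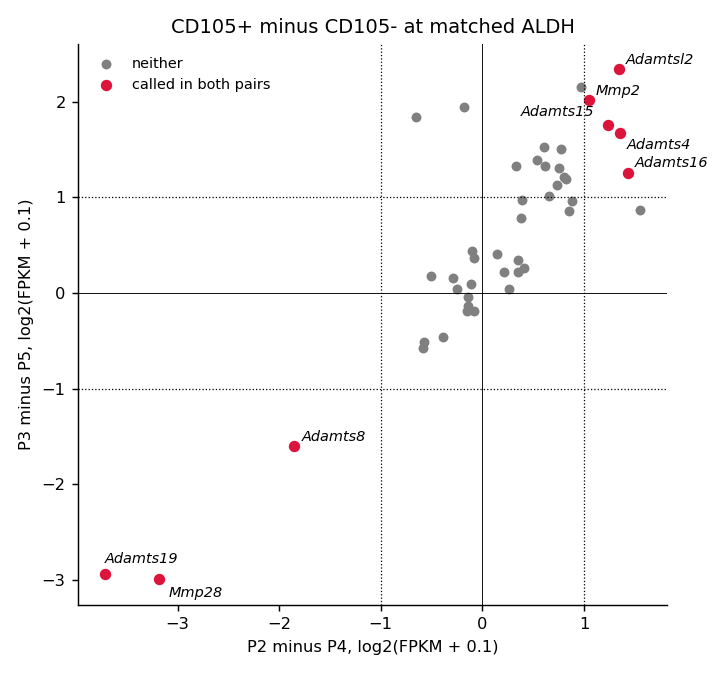
Log2 differences of FPKM + 0.1 for the 45 members, P2 minus P4 on the horizontal axis and P3 minus P5 on the vertical axis. Each point is a gene, red points passed 2 times in both pairs, and dotted lines mark that fold. Adamts19, Mmp28 and Adamts8 lie far from the other points at the lower left.

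The pairs did not give the same number of calls. P2 against P4 alone called 6 members higher and 3 lower, against 4.26% and 7.33% of all genes. P3 against P5 alone called 18 higher and 3 lower, against 6.79% and 6.11%. The direction differed between the pairs for 8 of the 45 members, against 17.1% of all genes. Adam23 was 1 of the 8, with ratios of 0.632 and 3.69. The median log2 difference of the members was 0.35 for P2 against P4 and 0.79 for P3 against P5, against -0.08 and -0.09 for all genes. Division by Gapdh, which was higher in P4 and P5, moved the medians of all genes to 0.38 and 0.44 and the calls to 17 higher and 3 lower, against 7.83% and 3.04% of all genes.

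Beside these calls, Eng and the fibroblast gene Lum were called higher in the CD105+ populations, and so were S100a8 and S100a9 of the neutrophil genes, the mural gene Notch3 and the adipocyte gene Plin1. S100a8 and S100a9 were tested only through P3, which is itself a CD105+ population. In the other direction, 8 of the 9 mesothelial genes and all 6 pancreatic acinar genes were called lower, as were Kdr and Acta2. Upk3b was at 11.1, 6.78 and 22.7 FPKM in P1 to P3 and at 383, 289 and 1140 in P4 to P6, an order of gates shared with Mmp28 and Adamts8. Wt1, the ninth mesothelial gene, was at 50.3 to 106 FPKM in P1 to P3 and at 149 to 211 in P4 to P6. The part of mesothelial and of the other cells in the result was not tested.

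The comparison of P1 with P2 asked what separated the ALDH high from the ALDH intermediate CD105+ cells. Of the 45 members, 2 were called higher in P1, 4.44% against 0.796% of all genes, and 4 were called lower, 8.89% against 4.25%. Adam23 was higher in P1 by a ratio of 3.18 (3.04 to 3.32) and Adamtsl3 by 2.41 (2.29 to 2.54). Adamts9 was lower in P1 by a ratio of 4.19 (3.84 to 4.58), Mmp28 by 4.27 (2.80 to 6.82), Mmp16 by 3.17 (2.49 to 4.12) and Adamts8 by 2.99 (2.06 to 4.44). Mmp28, Mmp16 and Adamts8 were at 0.321 FPKM or less in P1, and these 3 calls were lost with a pseudocount of 1. All 6 acinar genes were called lower in P1 than in P2, as were Msln, Krt7, Kdr, Acta2, Cd68, S100a8 and S100a9, and their part in the result was not tested.

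Between P2 and P3, the ALDH intermediate and low CD105+ cells, few members passed 2 times. None was called higher in P2, against 0.996% of all genes, and 1 was called lower, 2.22% against 2.61%, which is near the background. That gene was Mmp9, lower in P2 by a ratio of 3.11 (2.68 to 3.60). Mmp9 entered the comparisons only through P3, since its mean over the other 5 libraries was 0.919 FPKM. Of the 4 neutrophil genes found from a list of 5, S100a8 was at 0.197, 2.21, 4.77, 0, 0.340 and 0 FPKM in P1 to P6 and S100a9 at 0, 1.92, 5.18, 0, 0.283 and 0 FPKM, both called lower in P2 than in P3 and both tested only through P3, and Mpo and Elane were at or below 0.136 FPKM, with Mpo listed at 0 in P6 and Elane in P3. Their summed FPKM was 0.358, 4.22, 10, 0.120, 0.680 and 0.113, with S100a8 the most abundant by mean and S100a9 in P3, and their part in the Mmp9 value of P3 was not tested. Also called between P2 and P3 were Msln, Cd79a, Adipoq and the 6 acinar genes, higher in P2, and Upk3b, Lrrn4, Acta2, Hba-a1 and Hbb-bs, lower in P2, and their part was not tested.

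Between P4 and P5, the ALDH intermediate and low CD105- cells, 9 of 45 members were called higher in P4, 20% against 3.8% of all genes, and none was called lower, against 1.24%. They were Mmp2, Mmp11, Adam5, Adam12, Adam23, Adamts2, Adamts12, Adamtsl2 and Adamtsl3. With a pseudocount of 1, Mmp11, Adam5, Adam12 and Adamtsl2 were no longer called. Adam23 had the largest difference, with a ratio of 5.17 (4.8 to 5.58), followed by Adamtsl3 with 4.22 (3.85 to 4.64). The ratio was 2.73 (2.66 to 2.81) for Mmp2 and 2.59 (2.55 to 2.62) for Adamts2, the most abundant genes among the 9. Adam23 and Adamtsl3 were also called higher in P1 than in P2, but both were slightly lower in P2 than in P3, so neither followed ALDH activity at each step.

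Beside these calls, all 6 acinar genes were called higher in P4 than in P5, at sums of 1013 and 124 FPKM. Of the mesothelial genes, Msln, Krt7 and Krt18 were called higher in P4, and so were the fibroblast gene Lum, at 143 and 56.4 FPKM, and the endothelial gene Kdr. S100a8 and S100a9 were called lower in P4. The part of these cells in the calls of P4 against P5 was not tested.

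The order of levels with ALDH activity was then taken over both gates, a comparison chosen after seeing the data. A fall from P1 to P2 to P3 and from P4 to P5 was seen in 18 of 45 members, 40.0% against 16.7% of all genes, and the reverse order in 8, 17.8% against 31.1%. The falling members were Timp1, Timp2, Timp3, Mmp2, Mmp11, Mmp14, Adam5, Adam9, Adam15, Adam17, Adam19, Adam22, Adamts2, Adamts5, Adamts12, Adamtsl2, Adamtsl4 and Adamtsl5. In 16 of them, all but Timp1 and Mmp14, each of the steps exceeded its counting interval. Adam5 entered the comparisons only through P1, which the falling order needs to be the highest of P1 to P3. The rising members were Mmp9, Mmp16, Mmp19, Mmp28, Adam1a, Adamts1, Adamts8 and Adamts9, of which 4 exceeded the counting interval at each step. Mmp9 and Adam1a entered the comparisons only through P3, which this order needs to be the highest of P1 to P3. Adam1a had a mean of 1 FPKM, just inside the limit for entry, and of 0.923 FPKM without P3. It overlaps Gm42878 over 63.7% of its exon length and Mapkapk5 over 24.0%, both on the same strand. Tmem116 on the opposite strand overlaps 11.3% of its exon length. Of the markers, Lum and Eng fell in the same order, and Wt1, Acta2, S100a8, S100a9, Hba-a1, Hbb-bs, Fosb, Jun and Atf3 rose, and their part in the result was not tested. S100a8 and S100a9, like Mmp9 and Adam1a, entered only through P3. The order has no minimum fold, and after median-of-ratios scaling 20 members fell, against 24.0% of all genes, and 4 rose, against 22.1%.

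Genes that work with these proteases were taken from a list of 39, of which 33 had a mean of at least 1 FPKM. In P4 against P5, 9 of the 33 were called higher, against 3.8% of all genes, and none was called lower, against 1.24%. They were the convertases Pcsk5 and Pcsk6, which remove pro-domains, the protease inhibitor Serpine2, the procollagen proteinase enhancer Pcolce2, cathepsin K (Ctsk), the serine protease Prss23, and the matrix genes Vcan, Fbn1 and Nid1, which encode versican, fibrillin-1 and nidogen-1. Versican is a substrate of the Adamts enzymes named above. Vcan was at 49.1, 40.3, 32.8, 28.3, 12.6 and 8.56 FPKM in P1 to P6, and Fbn1 at 514, 381, 228, 287, 97.0 and 60.0 FPKM. Acan, which encodes aggrecan, was listed at 0 in every library.

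In P6 against each of P1 to P5, 5 of the 33 were called lower, against 4.34% of all genes, and 1 was called higher, against 4.47%. Serpine2 was at 214, 160, 128, 86.0, 25.8 and 2.33 FPKM, Pcolce2 at 252, 138, 75.4, 102, 19.9 and 1.69 FPKM, and Ctsk at 96.6, 77.6, 61.1, 40.6, 16.8 and 2.72 FPKM. Pcsk5 was at 46.6, 35.8, 26.5, 19.8, 7.91 and 2.98 FPKM, and the serine protease Fap, a fibroblast surface marker, at 14.9, 7.76, 11.8, 9.32, 7.78 and 1.27 FPKM. P6 thus had little RNA for these in addition to Mmp2. The astacin protease Tll1 was higher in P6, at 4.85 FPKM against 0.696 or less, and was tested only through P6, with Bmp1, the main procollagen C-proteinase, between 92.0 and 186 FPKM in all 6 libraries.

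**Figure D5:**
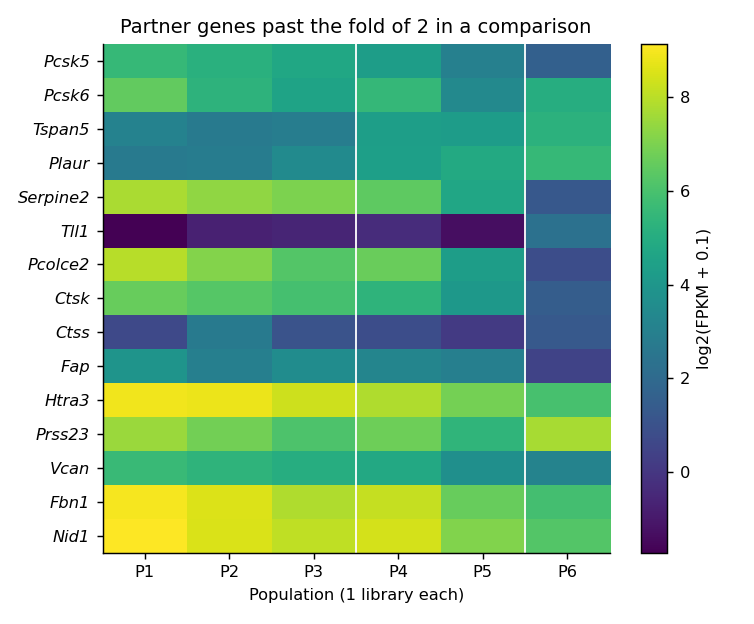
Heat map of the 15 partner genes that passed 2 times in at least 1 comparison. Columns are the 6 libraries and color is log2(FPKM + 0.1). Serpine2, Pcolce2, Ctsk and Pcsk5 darken in P6, and Plaur and Tspan5 are brighter in P4 to P6 than in P1 to P3.

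In CD105+ against CD105- stroma, 1 of the 33 was called higher, against 3.38% of all genes, and 2 were called lower, against 5.49%, and both counts were near the background. The higher gene was the serine protease Htra3, at 483, 458, 321, 228, 116 and 63.4 FPKM in P1 to P6. The lower genes were Plaur, the receptor that holds urokinase at the cell surface, at 6.50, 7.09, 10.9, 20.9, 29.4 and 47.1 FPKM, and Tspan5, a tetraspanin that carries Adam10 to the surface, at 8.33, 6.50, 7.28, 20.3, 19.4 and 37.7 FPKM. Tspan5 was thus higher in the same populations, P4 to P6, in which Adam10 was above 33 FPKM. The other tetraspanins listed differed from Tspan5. Tspan14, at 7.94 to 10.1 FPKM, and Tspan17, at 4.20 to 8.05 FPKM, were both lower in P4 to P6 than in P1 to P3. Tspan15 and Tspan33 averaged below 1 FPKM and were highest in P6, at 3.02 and 0.430 FPKM. Rhbdf1, which carries Adam17, was between 31.6 and 41.3 FPKM, and Rhbdf2 between 4.06 and 10 FPKM.

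In P1 against P2, Pcsk6 was called higher, at 91.8 and 39.2 FPKM (1 of 33, against 0.796% of all genes), and Tll1 and the cathepsin S gene Ctss were called lower (2 of 33, against 4.25%). In P2 against P3, Ctss was called higher, at 6.49 and 1.96 FPKM (1 of 33, against 0.996%), and none was called lower, against 2.61%. Other partners varied less. Reck, a membrane-anchored inhibitor of Mmp enzymes, was between 16.5 and 45.0 FPKM, and Lrp1, which takes up Timp and protease complexes, between 132 and 424 FPKM. Furin, which activates Mmp14 inside the cell, was between 16 and 29.4 FPKM.

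Members below a mean of 1 FPKM included 4 that reached 1 FPKM in a library. Adamts17 was at 2.98 FPKM in P6 and at 0.283 or less elsewhere, and Adamts6 was at 1.33 in P6 and at 0.588 or less elsewhere. Mmp15, a membrane-anchored enzyme, was at 0.913, 1.02 and 1.03 FPKM in P1 to P3 and at 0.291 or less in P4 to P6. Mmp10 was at 0.958, 1.08, 0.746, 0.271, 0.385 and 0.0536 FPKM, with the gates in the same order as for Mmp3 of the same cluster. Adamts7 and Mmp17, which entered the comparisons, were not called in any of them, and they ranged from 3.12 to 8.90 FPKM and from 2.32 to 4.65 FPKM.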

How the data were processed

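The authors deposited FPKM values, which their processing notes describe as made with TopHat2 2.0.7 and Cufflinks 2.1.1 on mm10; the annotation was not given in the sources used here. Values of repeated symbols were summed, which gave 23352 genes. A gene was tested when its mean over the 6 libraries was at least 1 FPKM, and called when FPKM + 0.1 differed by at least 2 times in every pair of a comparison. The same rule over all tested genes gave the background. Members and lists were chosen with earlier results of these data known. Named genes were the 4 Timp genes, the called members, the members that averaged 10 FPKM or more, and Mmp2, Mmp9, Mmp13, Mmp14, Adam10 and Adam17 as the best known. Members below the mean of 1 FPKM were named where a library reached 1 FPKM. Other genes singled out, those in the plots included, were chosen after their values were seen.

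Library depth was estimated from FPKM steps between genes with 1 transcript, taking the transcript length minus 200 nt. Of the low values, 53.0% to 58.5% then lay within 0.05 of a whole read, against 10% if spread evenly. Intervals are exact (Clopper-Pearson) on the estimated reads of both libraries, for FPKM ratios without the added 0.1. Alternatives were no filter, a mean of at least 5 FPKM, a pseudocount of 1, median-of-ratios scaling, division by Gapdh, folds of 1.5 and 3, and the most abundant entry of repeated symbols. Gene positions and promoter windows came from RefSeq for GRCm38.p6, and exon overlaps from GENCODE M21. The procedure was checked on simulated data. Calculations used scipy 1.17.1, pandas 2.3.3 and numpy 2.4.6 under Python 3.11.15, and plots were drawn with matplotlib 3.10.9.

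Each population had 1 library, so differences between populations and between libraries cannot be told apart. Counting intervals leave out variation between animals, sorts and library preparations. Windows were at hand for 53 of the 84 members, and protein motifs were not searched because protein sequences were lacking. The library kit did not mark strand. RNA levels do not give the amount of protein or the activity of a protease, which also depends on removal of the pro-domain and on inhibitors. The sorted cells had been digested with a collagenase mix.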

Additional observations from a re-analysis of the deposited data

How the results depend on the processing

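With 1 library in each population, samples could not be paired. Of the alternatives, leaving out each of P1 to P5 in turn and taking each CD105 pair alone were chosen after seeing the data, and the ALDH order and its rescaling were also chosen after seeing the data. None of the 42 calls of named members changed sign in its nearest pair, but the members' median log2 difference for P6 against P5 went from -0.17 to 0.09 after division by Gapdh, where that of all genes went from -0.01 to 0.25. For P6 against P1 to P5, the 5 higher members became 8 of 66 without a filter, against 6.27% of all genes. They became 1 of 30 at a mean of at least 5 FPKM, against 2.61%. With a pseudocount of 1 they became 3, against 3.5%, and after division by Gapdh 3, against 4.76%. At a fold of 1.5 they became 8, against 8.54%, and at a fold of 3 they became 0, against 2.17%. The 13 lower members became 8 of 30 at a mean of at least 5 FPKM, against 4.03%, and 8 with a pseudocount of 1, against 2.77%. With 1 of P1 to P5 left out they lay between 13 and 18, against 4.36% to 5.82%. For CD105, the 5 higher members became 3 of 30 at a mean of at least 5 FPKM, against 2.35%. After division by Gapdh they became 17, against 7.83%, and in P3 against P5 alone 18, against 6.79%. At a fold of 1.5 they became 17, against 6.93%, and at a fold of 3 they became 0, against 1.1%. The 3 lower members were 3 after division by Gapdh, against 3.04%. For P1 against P2, the 2 higher members became 1 of 30 at a mean of at least 5 FPKM, against 0.644%. They became 9 at a fold of 1.5, against 2.7%, and 1 at a fold of 3, against 0.315%. The 4 lower members became 2, 7 and 2 in the same settings, against 3.09%, 8.14% and 2.04%. With a pseudocount of 1 the lower members became 1, against 2.61%. For P2 against P3, the 0 higher members became 3 at a fold of 1.5, against 2.24%. The 1 lower member became 0 of 30 at a mean of at least 5 FPKM, against 2.09%. It became 3 at a fold of 1.5, against 5.39%, and 0 at a fold of 3, against 1.22%. For P4 against P5, the 9 higher members became 5 of 30 at a mean of at least 5 FPKM, against 2.92%. With a pseudocount of 1 they became 5, against 2.37%. At a fold of 1.5 they became 21, against 7.23%, and at a fold of 3 they became 2, against 1.48%. The 0 lower members became 1 at a fold of 1.5, against 3.57%. The 8 members that rose as ALDH activity fell became 4 with median-of-ratios scaling, against 22.1%, and 4 after division by Gapdh, against 20.3%. A higher mean leaves fewer genes tested, and other folds move the limit itself; for the rest the cause was not tested. Of these 42 calls, 41 stayed past the fold with median-of-ratios scaling, 39 after division by Gapdh and 26 with a pseudocount of 1. Depth limits members with few reads, such as Adamtsl2 in P6 with about 4.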

Other observations

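The 3 erythroid genes, led by Hba-a1 and with Hbb-bs found under an older symbol, summed to 56.3, 66.7, 203, 79.7, 132 and 246 FPKM in P1 to P6. The 4 lymphocyte genes, led by Cd79a, summed to 3.33, 5.07, 1.71, 1.94, 1.20 and 2.58 FPKM, with Cd3e listed at 0 in P1, P4 and P5. The 5 fibroblast genes, led by Dcn, summed to 8795, 9524, 7670, 7475, 6573 and 7250 FPKM. Their part in the results was not tested. Adamdec1, a relative of the Adam genes, did not exceed 0.0298 FPKM.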
